A study of Mus musculus with 49 samples.

Results

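The respiratory chain genes described here were chosen by name from the deposited expression table. A gene was a member when its symbol began with Nduf, Sdha, Sdhb, Sdhc, Sdhd, Uqcr, Cox4, Cox5, Cox6, Cox7, Cox8, Atp5 or mt- and when it was protein coding, with pseudogene names and Atp5g2 left out. This rule found 105 genes of 38253, of which 92 lie in the nucleus and 13 in the mitochondrial genome. No expression value entered the rule, although it was written with earlier results of these data known. By role, the nuclear members were 7 core and 30 accessory subunits of complex I, 4 complex I assembly factors, 4 subunits and 2 assembly factors of complex II, 8 subunits of complex III, 12 commonly expressed and 8 tissue-restricted subunits of complex IV, 5 subunits of the F1 head of ATP synthase and 9 of its Fo base and stalk. The other 3 nuclear genes, Atp5s, Atp5sl and Cox4nb, matched the name rule only and are kept apart where roles are counted.

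RNA sequencing of 49 samples gave 30 samples of normal haematopoietic cells in 6 groups and 19 samples of leukaemia in 4 groups. There were 5 samples of LT-HSC, the long-term stem cells, and 5 of ST-HSC, the short-term ones. The progenitors comprised 6 samples of the multipotent MPP, 5 of the common myeloid CMP, 5 of GMP, which give granulocytes and macrophages, and 4 of MEP, which give megakaryocytes and erythrocytes. The leukaemias were named for the cell that received MLL-AF9 (MA9), a fusion oncogene, and comprised 3 samples of STHSC:MA9, 6 of MPP:MA9, 4 of CMP:MA9 and 6 of GMP:MA9. Every group was labelled as wild-type C57BL/6J bone marrow from mice aged 6 to 12 weeks, so the labels give the same strain, genotype and age throughout. According to the methods of the study, normal cells were sorted from marrow without transplantation. The leukaemias were GFP-positive cells from the spleen of sublethally irradiated recipients of cells that had been retrovirally transduced with MA9 and a GFP reporter. Leukaemic mice were taken when their health declined after transplantation, and median survival was longest for GMP:MA9. Age at sampling may therefore differ between normal cells and leukaemias and among the leukaemias, whatever the labels give. Effects of the oncogene, of transduction, of transplantation, of the organ and of age at sampling therefore cannot be told apart in any leukaemia-to-normal comparison. GFP marks the transduced cells and their progeny at every stage of maturity, and these are bulk samples, in which fewer cells of one type and less RNA per cell cannot be told apart.

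The respiratory chain passes electrons from NADH (complex I) and succinate (complex II) through complex III to complex IV, where oxygen is reduced, and the proton gradient built on the way drives ATP synthase. Complexes I, III, IV and ATP synthase are built from proteins of both genomes, whereas all subunits of complex II are nuclear. Resting blood stem cells are known to rely largely on glycolysis, and their differentiating progeny on oxidative phosphorylation.

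Values were FPKM, fragments per length of transcript and per total of mapped fragments, and changes are differences of log2(FPKM + 1), which understate the change of low genes. A gene passed the test when its limma p-value, adjusted over all genes tested by the Benjamini-Hochberg method, was below 0.05. Of the 92 nuclear members, 85 had a mean FPKM of at least 1 and were tested in each fit, as were all 13 mitochondrial members. Members below that mean were mostly tissue-restricted subunits, such as Cox4i2, whose highest value was 4.03 FPKM, and Cox8c, listed at 0 in all 49 samples. Numbers of reads were not part of the values, so depth is treated as unknown and no counting interval is given. Lineage markers set GMP apart from CMP and MEP apart from GMP: all 7 GMP markers were lower in CMP than in GMP, and summed MEP marker FPKM was 2887 to 3334 in MEP against 6.71 to 68.8 in GMP. The MEP marker sums of LT-HSC, 594.8 to 3074 FPKM, and of CMP, 412 to 2913 FPKM, reached into the range of MEP. Stem cell markers did not set stem cells apart from MPP, with median sums of 394.6 in LT-HSC, 367.3 in ST-HSC and 445.7 in MPP. Multipotent progenitor markers did, at 679.9 to 769.4 in MPP and at most 257.4 in ST-HSC. T and NK cell markers summed to 613.8 to 774.0 in GMP and at most 298.5 in ST-HSC. LT-HSC replicates 4 and 5 and ST-HSC replicates 4 and 5 held the highest granulocyte and globin RNA of the stem cell groups, with S100a8 at 2201 to 20265 FPKM and Hbb-b1 at 3781 to 44047 FPKM. ST-HSC replicate 2 was almost as high as the lowest of them in Hbb-b1, at 3770 FPKM, but had S100a8 at 41.3 FPKM. It was kept where those libraries were left out. GMP:MA9 replicates 2 and 3 had the lowest nuclear member means of their group, 5.02 and 5.58 on the log2 scale, and mitochondrially encoded RNA at 34.5% and 28.8% of summed FPKM. Most counts of passing members that rest on these libraries are given with and without them. Group means, rankings of groups and counts by role or motif include them.

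RefSeq promoter sequences (GRCm38.p6) were found for 76 of the 92 nuclear members. The 250 bases upstream of the start are printed for 6 members named in the results below, with matches to 2 motifs in capitals. The motif of NRF1 (GCGC and TGCGC separated by any 1 base), a regulator of many nuclear respiratory genes, and that of the ETS factor GABPA (CCGGAAG) were searched on both strands. Each sequence is written 5′ to 3′ on the strand of its gene, so a match on the other strand appears as its reverse complement. The members are Ndufs5 (chr4:123718187-123718436, minus strand), Sdhd (chr9:50603850-50604099, minus strand), Cox6a1 (chr5:115348959-115349208, minus strand), Atp5h (chr11:115419920-115420169, minus strand), Ndufa4 (chr6:11907451-11907700, minus strand) and Atp5g1 (chr11:96075632-96075881, minus strand).
Ndufs5: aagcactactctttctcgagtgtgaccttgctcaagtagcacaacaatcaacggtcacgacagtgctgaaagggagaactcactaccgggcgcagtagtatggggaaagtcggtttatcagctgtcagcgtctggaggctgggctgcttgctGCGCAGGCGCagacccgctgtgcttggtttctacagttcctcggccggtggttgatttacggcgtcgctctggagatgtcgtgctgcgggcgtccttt
Sdhd: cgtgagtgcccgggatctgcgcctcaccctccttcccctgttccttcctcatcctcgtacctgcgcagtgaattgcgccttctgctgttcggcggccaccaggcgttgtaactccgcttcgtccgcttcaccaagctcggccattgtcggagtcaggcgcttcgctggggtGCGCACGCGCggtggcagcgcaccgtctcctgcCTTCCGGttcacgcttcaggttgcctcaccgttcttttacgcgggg
Cox6a1: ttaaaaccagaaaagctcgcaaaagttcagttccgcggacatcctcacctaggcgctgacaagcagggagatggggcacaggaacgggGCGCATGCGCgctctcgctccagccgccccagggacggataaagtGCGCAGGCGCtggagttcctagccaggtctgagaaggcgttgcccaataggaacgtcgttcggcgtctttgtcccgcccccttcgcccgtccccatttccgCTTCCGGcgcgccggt
Atp5h: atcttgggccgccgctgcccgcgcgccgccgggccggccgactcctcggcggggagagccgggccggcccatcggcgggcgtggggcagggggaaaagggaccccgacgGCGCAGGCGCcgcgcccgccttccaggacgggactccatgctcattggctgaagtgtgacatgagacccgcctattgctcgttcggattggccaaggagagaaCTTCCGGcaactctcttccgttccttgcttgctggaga
Ndufa4: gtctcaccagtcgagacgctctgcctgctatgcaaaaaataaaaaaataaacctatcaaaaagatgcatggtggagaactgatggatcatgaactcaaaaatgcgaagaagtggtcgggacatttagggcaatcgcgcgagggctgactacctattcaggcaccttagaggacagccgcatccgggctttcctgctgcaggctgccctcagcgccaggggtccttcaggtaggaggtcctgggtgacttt
Atp5g1: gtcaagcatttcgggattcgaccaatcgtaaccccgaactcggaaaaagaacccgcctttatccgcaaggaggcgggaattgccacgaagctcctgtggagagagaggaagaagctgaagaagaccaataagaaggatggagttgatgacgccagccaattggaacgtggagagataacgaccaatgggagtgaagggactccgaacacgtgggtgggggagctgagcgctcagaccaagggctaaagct
The first 4 hold an NRF1 match and, except Ndufs5, an ETS match as well. Ndufa4 and Atp5g1, both lower in every leukaemia than in its cell of origin, hold neither in this window. These 6 do not stand for the members as a whole, of which 17 of 76 held the NRF1 motif in the promoter windows counted next.

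Among the promoter windows of all matched nuclear members, 18 of 82 (21.95%) held the NRF1 motif, against 4.60% of all 32851 windows and 10.3% of the 11663 windows of expressed genes. The ETS motif was in 19 (23.2%), against 8.86% and 18.2%, and the motif of YY1 (AAGATGGC), a further regulator, was in 13 (15.9%), against 2.75% and 4.67%. These are matches of letters and not shown sites of binding. Between GMP:MA9 and GMP, 16 of 17 tested members with the NRF1 motif were lower, with a median change of -0.91, and 47 of 55 without it were lower, with a median of -0.79. Members with the ETS motif had a median of -0.84 against -0.77 without it, and those with the YY1 motif -0.71 against -0.84. No difference between these subsets was tested.

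The mitochondrial members lie close together on chrM, and 3 pairs share bases that the FPKM values cannot divide with certainty. The shared bases are printed from the reference of the NCBIM37 build, plus strand, with the first and last 3 bases in capitals. mt-Nd5 and mt-Nd6 run on opposite strands, which the library preparation did not keep apart. The first pair shares 43 bases (chrM:7927-7969), the second 7 bases (chrM:10167-10173) and the third 14 bases (chrM:13552-13565).
mt-Atp8 and mt-Atp6: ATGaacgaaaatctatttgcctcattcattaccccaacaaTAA
mt-Nd4l and mt-Nd4: ATGcTAA
mt-Nd5 and mt-Nd6: TTAatctcgagTAA
Beside these, mt-Atp6 and mt-Co3 share 1 base. In addition, 31-base windows of some mitochondrial genes occur exactly in other annotated genes. The share was 100% for mt-Nd4l, 88.3% for mt-Atp6, 86.2% for mt-Atp8, 47.13% for mt-Co1 and 47.09% for mt-Co2. The gene that shared most was Gm10222 for mt-Nd4l, Gm10925 for mt-Atp6 and mt-Atp8, Gm13340 for mt-Co1 and Gm13341 for mt-Co2. For mt-Atp6 and mt-Atp8 the shares include the bases they have in common. Values of these members are uncertain to that extent, whereas mt-Nd3 shared none of its windows.

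In normal cells the group means of the nuclear members were higher in progenitors than in stem cells, and those of the mitochondrial members did not follow them. The mean log2(FPKM + 1) of the 84 nuclear members tested in every fit was 5.86 ± 0.32 (SD) in LT-HSC, 5.92 ± 0.17 in ST-HSC, 6.22 ± 0.14 in MPP, 6.39 ± 0.26 in CMP, 6.51 ± 0.08 in GMP and 6.82 ± 0.05 in MEP. The 13 mitochondrial members stood at 9.93 ± 0.59 in LT-HSC and 9.87 ± 0.13 in ST-HSC, at their lowest in GMP, 8.95 ± 0.35, and at 9.70 ± 0.25 in MEP. In the nuclear mean the MEP samples, from 6.78 to 6.90, lay above all LT-HSC, ST-HSC, MPP and GMP samples, but CMP replicate 5 reached 6.79. The granulocyte-rich LT-HSC replicates 4 and 5 read 5.46 and 5.73. LT-HSC replicates 1, 2 and 3 read 6.23, 5.72 and 6.15, and replicates 1 and 3 lay within the MPP range of 6.04 to 6.36. In the mitochondrial mean the samples of every pair of normal groups compared below overlapped. The difference of the 2 means narrowed from 4.08 in LT-HSC to 2.44 in GMP. The step to MPP depended on the scale. As a share of summed FPKM without mitochondrially encoded genes, nuclear members were at 1.61 ± 0.42% in LT-HSC, 1.65 ± 0.18% in ST-HSC and 1.68 ± 0.09% in MPP. That share was 2.15 ± 0.24% in CMP, 2.40 ± 0.07% in GMP and 2.56 ± 0.15% in MEP.

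**Figure D1:**
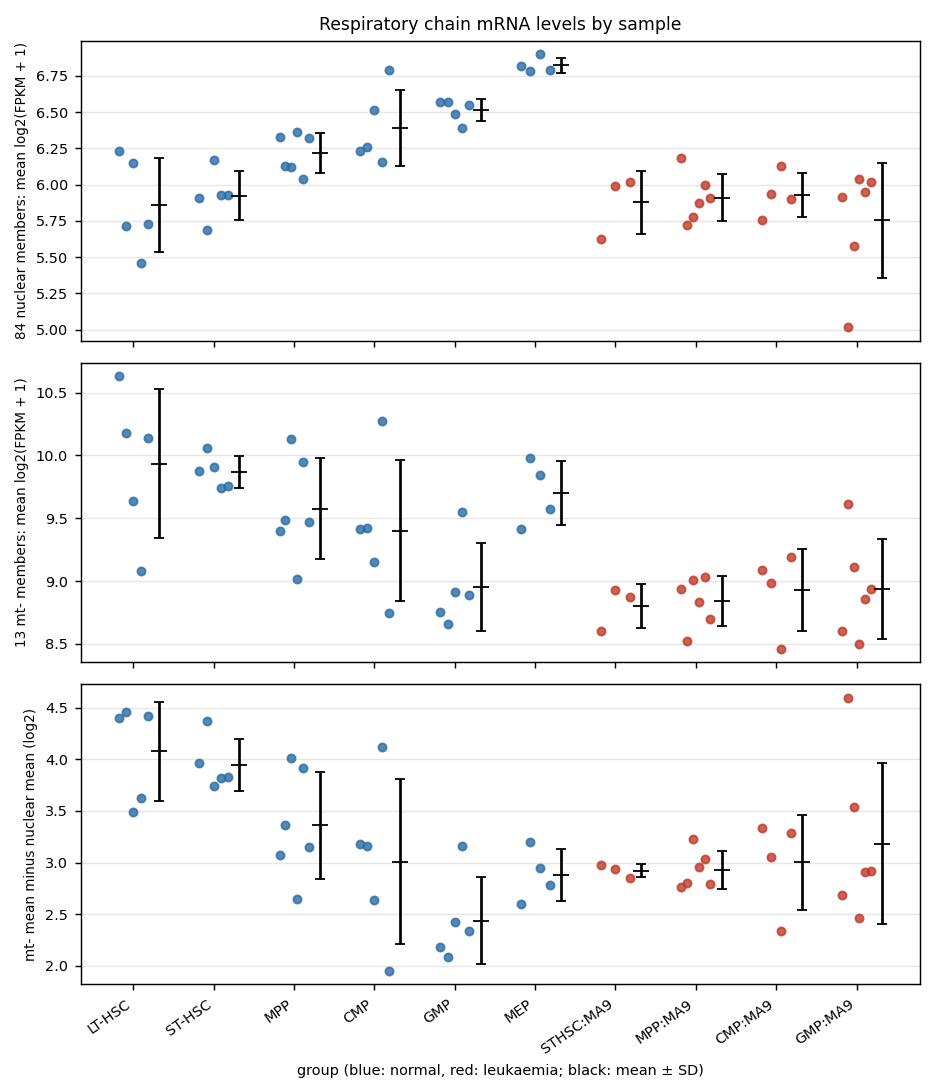
Mean log2(FPKM + 1) of the 84 nuclear members (top), of the 13 mt- members (middle) and their difference (bottom) in each of the 49 samples, with group means and SD in black. With all libraries included, group means of the nuclear members went from 5.86 in LT-HSC to 6.82 in MEP, whereas the 4 leukaemia groups lay between 5.75 and 5.93.

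Of the 85 nuclear members tested, 83 differed among the 6 normal groups, against 78.4% of all 12367 genes tested. MEP had the highest group mean for 63 of 84 members and GMP for 16. LT-HSC had the lowest for 46 and ST-HSC for 30. The rankings of groups here include the 4 granulocyte-rich stem cell libraries and were not repeated without them. The 2 members that did not pass were Sdhaf1, a complex II assembly factor (adjusted p = 0.224), and Atp5s (adjusted p = 0.351). Of the mitochondrial members, 7 of 13 differed among the normal groups, a smaller share than among all genes, with LT-HSC highest for 9 and GMP lowest for 10. Without LT-HSC replicate 4, with median-ratio scaling or with GC correction that count was 11. Without the 4 granulocyte-rich stem cell libraries 83 nuclear and 10 mitochondrial members differed.

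Neighbouring populations differed in steps, and each population except LT-HSC, GMP and MEP enters more than one of these comparisons. Between LT-HSC and ST-HSC 1 nuclear member was lower (background 7.51% of all genes) and none was higher (1.68%), and no mitochondrial member passed by limma, none even at an unadjusted p below 0.05. The single member was Ndufa4, and it did not pass once the 4 granulocyte-rich stem cell libraries were left out (-0.34, adjusted p = 0.236). Without those libraries the direction of the count turned, with 2 members higher in LT-HSC and none lower. The count was 0 without LT-HSC replicate 2, LT-HSC replicate 4, ST-HSC replicate 3 or ST-HSC replicate 5, and 3 without LT-HSC replicate 1 or 3, and with median-ratio scaling or GC correction 1 member was higher and none lower. Between ST-HSC and MPP 26 nuclear members were lower in ST-HSC (background 14.5%) and none was higher (4.41%), with a median change of -0.28 against -0.10 over all genes. They included 11 accessory and 4 core subunits of complex I and 4 common subunits of complex IV. Leaving out ST-HSC replicate 1, ST-HSC replicate 2 or MPP replicate 6 lowered the count to 16, 11 or 17, and without the 4 stem cell libraries 24 were lower and 1 was higher. The count also depended on the scale. When FPKM were rescaled without mitochondrially encoded genes, which moved the median of all genes by 0.14, 7 members were lower, among 726 lower genes of 12367. With median-ratio scaling 11 were lower and 1 higher, among 1167 lower genes, and GC correction gave the same counts of members. No mitochondrial member passed by limma, with 1 at an unadjusted p below 0.05 and 1 lower after GC correction. Between MPP and CMP 8 were lower in MPP (background 7.07%) and none was higher (7.41%), with a median of -0.14 against -0.03. That count was 5 without MPP replicate 3, 4 without CMP replicate 3 or 5 and 14 with GC correction. Of the mitochondrial members mt-Nd6 was higher in MPP than in CMP (1.03 ± 0.34, adjusted p = 0.0434), a call that was lost when most single libraries were left out and when FPKM were rescaled without mitochondrially encoded genes.

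CMP stood below both of its descendants in most nuclear members that passed. Against GMP, 16 were lower in CMP (background 9.61%) and 5 were higher (27.1%), while the median of all genes was 0.20 and that of the members -0.13. Against MEP, 37 were lower (background 8.55%) and 2 were higher (23.0%), with a median of -0.41 against 0.14. Median-ratio scaling, which moved the median of all genes by -0.192 and -0.137 in these comparisons, gave 40 lower and 2 higher against GMP, and 66 lower and 1 higher against MEP. Of all 12367 genes it gave 2214 lower and 2135 higher against GMP, and 2077 lower and 2115 higher against MEP. Rescaling without mitochondrially encoded genes went the other way against MEP, with 22 lower and 2 higher under a shift of all genes of 0.107, and GC correction gave 63 lower and 2 higher. Of all genes, 634 of 12367 were lower against MEP after this rescaling and 2511 of 11882 after GC correction. The members lower in CMP than in MEP were 11 accessory and 2 core subunits of complex I, 5 of complex III, 9 common subunits of complex IV and 5 of the Fo base and stalk, among others. The mitochondrial members took the other course between CMP and GMP, where mt-Nd1, mt-Atp6, mt-Nd4l, mt-Nd5 and mt-Nd6 were higher in CMP by 0.71 to 1.13 and none was lower. That count of 5 was 1 without CMP replicate 4 or GMP replicate 2 and 2 without GMP replicate 1, and with median-ratio scaling 1 was higher and 1 lower, and rescaled without mitochondrially encoded genes 1 was higher. Between CMP and MEP mt-Nd4l alone passed, at 134 ± 79.7 and 403 ± 99.6 FPKM (-1.74 ± 0.42 SE, adjusted p = 0.0019), and without CMP replicate 4 a second member passed. With median-ratio scaling 3 were lower, and with GC correction 2 were.

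Named members showed where single populations departed from this order. Ndufb3, an accessory subunit of complex I, read 37.3, 36.8, 49.9, 36.1 and 46.2 FPKM in CMP and 79.9, 73.2, 85.5, 84.2 and 87.5 FPKM in GMP. All 5 GMP samples lay above the CMP samples (-0.99 ± 0.15, adjusted p = 1.19e-05). Ndufab1, an accessory subunit that also serves as the mitochondrial acyl carrier protein, ran the other way, with 145 ± 25.4 FPKM in CMP and 87.5 ± 23.4 FPKM in GMP (0.74 ± 0.21, adjusted p = 0.006003). Uqcrc2, a core protein of complex III, was at 98.0 ± 18.2 FPKM in CMP and 174 ± 35.5 FPKM in MEP (-0.82 ± 0.19, adjusted p = 0.001295). Atp5b, the catalytic beta subunit of the F1 head, was among the most abundant nuclear members, at 2475 ± 297 FPKM in MPP and 4237 ± 857 FPKM in CMP (-0.76 ± 0.15, adjusted p = 0.0005775), and the samples of these groups did not overlap.

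Cox6b2, described as a testis isoform of a complex IV subunit, was lowest in GMP and highest in MEP among the normal groups. It read 80.1, 56.0, 111, 138 and 161 FPKM in CMP, 40.2, 33.7, 40.2, 37.7 and 40.6 FPKM in GMP, and 248, 250.3, 273 and 301 FPKM in MEP. The 3 groups did not overlap, and CMP was higher than GMP (1.39 ± 0.27, adjusted p = 0.0001635) and lower than MEP (-1.38 ± 0.28, adjusted p = 0.0004405). Its share of the FPKM of the pair Cox6b1 and Cox6b2 was 45.4 ± 3.14% in MEP, 30.8 ± 6.00% in CMP and 10.5 ± 0.712% in GMP. Cox6b1, the widely expressed isoform, was at 322 ± 22.3 FPKM in MEP and 328 ± 17.4 FPKM in GMP.

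**Figure D2:**
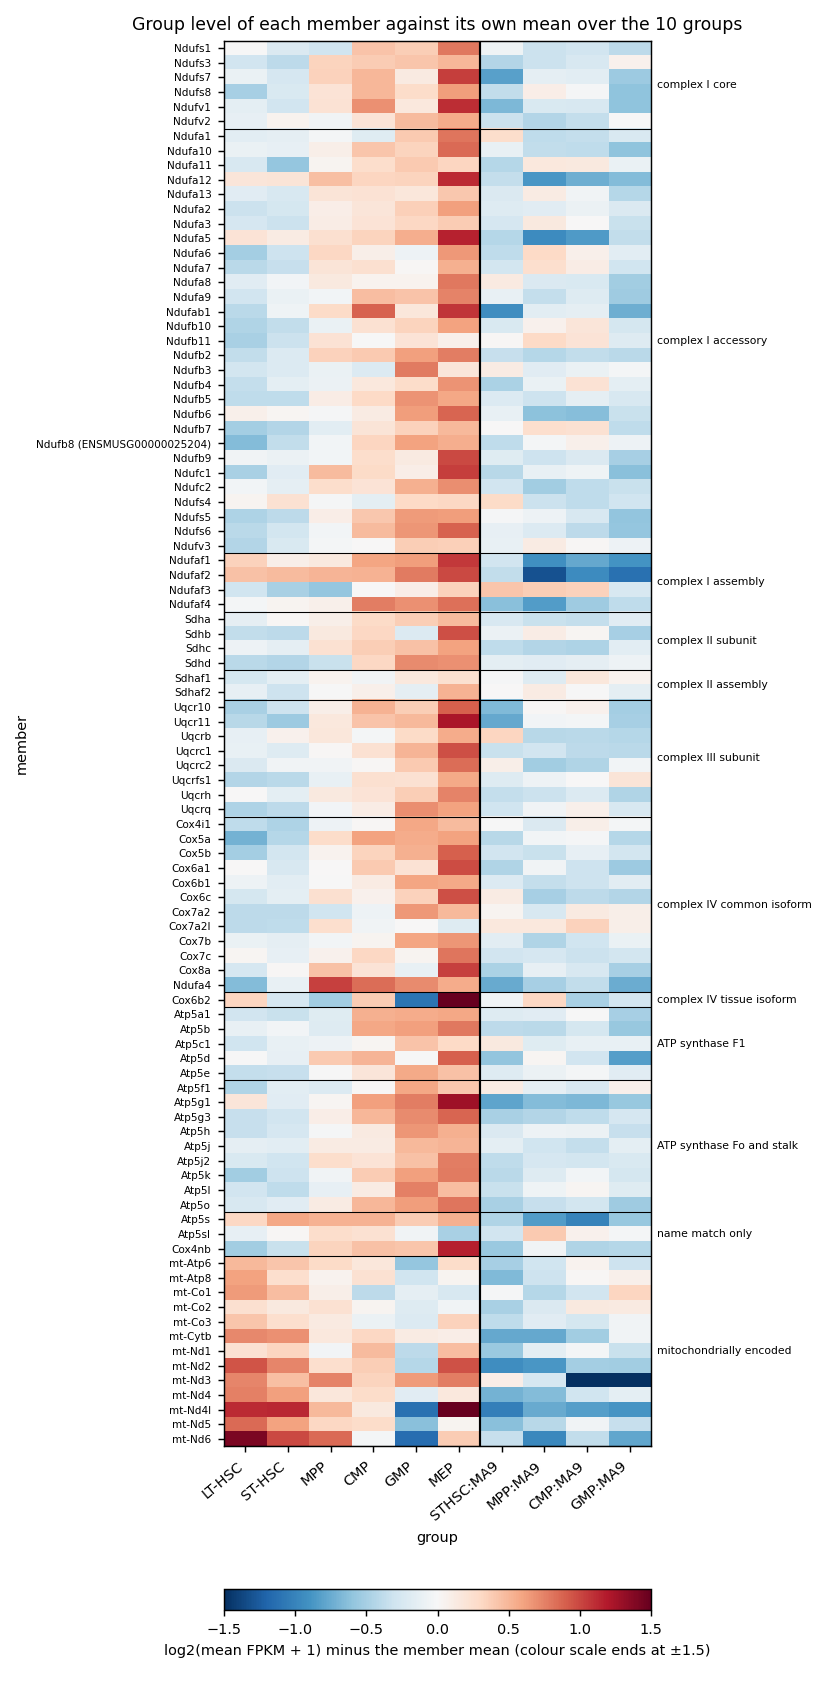
Group means of tested members, as log2(mean FPKM + 1) minus the member's mean over the 10 groups, with members ordered by role and a vertical line between normal and leukaemia groups. Most nuclear members are highest in MEP, which led the normal groups for 63 of 84, and the mt- members are highest in LT-HSC for 9 of 13.

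The comparison of each leukaemia with its cell of origin asked how the respiratory chain genes stood after transformation. More nuclear members were lower at the GMP origin than at any other, and fewest at the ST-HSC origin. Between STHSC:MA9 and ST-HSC 10 of 85 were lower (background 24.6% of 12600 genes) and 2 were higher (23.8%), a smaller share of members than of all genes, with a median change of -0.0045 against -0.04 over all genes. Between MPP:MA9 and MPP 35 were lower (34.8%) and 2 higher (27.7%), with a median of -0.31 against -0.09, so the share of lower members was near that of all genes. Between CMP:MA9 and CMP 43 were lower (36.0%) and none was higher (23.9%), with a median of -0.43 against -0.16. Between GMP:MA9 and GMP 74 were lower (28.7%) and 1 was higher (29.7%), with a median of -0.79 against 0.00, and 20 were lower by more than 2-fold, against 8.87% of all genes. Here the share of lower members was far above the background.

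Nuclear means of the 4 leukaemias were 5.88 ± 0.22 in STHSC:MA9, 5.91 ± 0.16 in MPP:MA9, 5.93 ± 0.15 in CMP:MA9 and 5.75 ± 0.40 in GMP:MA9 on the log2 scale. The change from normal to leukaemia differed among the 4 origins for 38 of 85 nuclear members, where 38.0% of all genes differed. That count was 25 when FPKM were rescaled without mitochondrially encoded genes, 28 to 49 when single libraries were left out, 34 without the 4 stem cell libraries and 31 without GMP:MA9 replicates 2 and 3, so a share of members above that of all genes was not shown. Without GMP:MA9 replicates 2 and 3, 60 members were lower than in GMP and 1 was higher, with a median of -0.54. Without STHSC:MA9 replicate 1 the comparison with ST-HSC turned to 6 higher and 2 lower, and without replicate 2 it gave 7 passing members in all. When FPKM were rescaled without mitochondrially encoded genes, 21 were lower and 1 was higher in STHSC:MA9, under a shift of all genes of -0.118, and median-ratio scaling gave 9 lower and 5 higher. Without ST-HSC replicates 4 and 5, 7 were lower and 1 was higher.

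**Figure D3:**
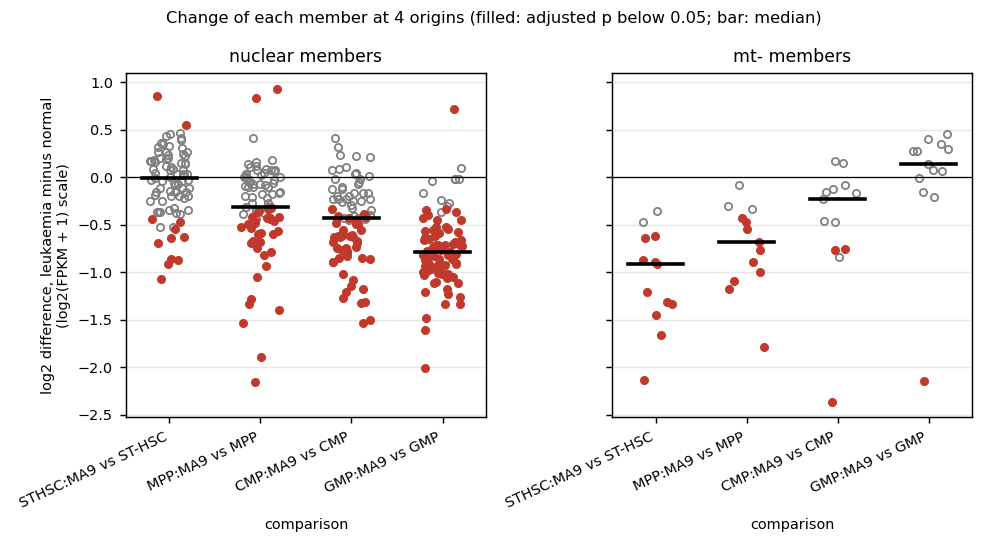
Difference of log2(FPKM + 1), leukaemia minus cell of origin, for each nuclear member (left) and mt- member (right) in 4 comparisons. Filled points passed the test and bars mark medians, which went from -0.0045 to -0.79 for nuclear members and from -0.92 to 0.14 for mt- members between the ST-HSC and the GMP origin.

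Across the 4 comparisons, which use separate samples, 9 nuclear members were lower in all, 22 in 3, 15 in 2, 30 in 1 and 9 in none. How many of all genes were lower in several comparisons was not counted. Since 24.6%, 34.8%, 36.0% and 28.7% of all genes were lower at the ST-HSC, MPP, CMP and GMP origins, other genes may be lower in several as well. The 9 that were lower in every leukaemia were Ndufa4, Ndufab1, Ndufs7, Ndufaf2, Ndufaf4, Cox8a, Atp5d, Atp5g1 and Atp5s. Members were higher in no more than 2 comparisons: Ndufaf3 and Cox6b2 in 2 and Cox7a2l, a factor of supercomplex formation, in 1. Some nuclear members share sequence with processed copies, and among the 51 tested members with less than 5% of their 31-base windows shared, 7, 18, 24 and 43 were lower at the ST-HSC, MPP, CMP and GMP origins. Other genes overlap Uqcrc2 (Pdzd9), Cox4i1 (Gm20388), Atp5b (Baz2a) and Atp5d (Dos), and their reads may not be fully divided.

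In complex I, 28 of 29 tested accessory subunits and 6 of 7 core subunits were lower in GMP:MA9 than in GMP, with medians of -0.74 and -0.71. At the CMP origin 6 of 7 core subunits but 10 of 29 accessory subunits were lower, with medians of -0.61 and -0.25, and at the MPP origin 3 and 9 were. The accessory counts at the CMP and MPP origins were not above the share of all genes. For counts by complex here and below, 24.6%, 34.8%, 36.0% and 28.7% of all genes were lower at the ST-HSC, MPP, CMP and GMP origins. No complex was tested against these shares. Ndufs5 (ENSMUSG00000028648, chr4:123389953-123395445 in NCBIM37), an accessory subunit of the membrane arm, read 62.8, 69.7 and 74.9 FPKM as the lowest, median and highest of GMP and 20.1, 29.4 and 35.2 FPKM in GMP:MA9. The groups did not overlap (-1.26 ± 0.15, adjusted p = 1.12e-08). In ST-HSC the same gene read 26.5, 29.0, 40.8, 40.5 and 30.8 FPKM and in STHSC:MA9 30.5, 51.7 and 49.1 FPKM, which overlap (0.36 ± 0.18, adjusted p = 0.0989). Its change differed among origins (adjusted p = 6.1e-06), and 26.8% of its windows are shared with BC002163. Ndufb3, high in normal GMP, was at 82.1 ± 5.68 FPKM there and 46.6 ± 8.99 FPKM in GMP:MA9 (-0.82 ± 0.14, adjusted p = 1.04e-05), and it did not pass at the other 3 origins, where changes were -0.07 to 0.26.

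The assembly factors of complex I, which build the complex without remaining in it, held some of the largest losses and one of the few gains. Ndufaf2 (ENSMUSG00000068184, chr13:108842784-108948819 in NCBIM37) read 29.8, 32.4, 39.7, 46.4 and 34.4 FPKM in GMP and from 3.04 over a median of 8.90 to 16.4 FPKM in GMP:MA9. In MPP it ranged from 18.6 over 30.3 to 39.6 FPKM and in MPP:MA9 from 3.13 over 7.83 to 12.9 FPKM. No leukaemia sample reached its cell of origin in any of the 4 comparisons, and the changes were -0.87 ± 0.33 (adjusted p = 0.02904), -1.90 ± 0.26 (adjusted p = 1.062e-07), -1.51 ± 0.31 (adjusted p = 7.021e-05) and -2.01 ± 0.28 (adjusted p = 1.605e-07) at the ST-HSC, MPP, CMP and GMP origins. A difference of its change among origins was not shown (adjusted p = 0.112).

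Ndufaf1 fell by 1.05 ± 0.23 (adjusted p = 0.0001525) at the MPP origin, by 1.32 ± 0.27 (adjusted p = 6.64e-05) at the CMP origin and by 1.61 ± 0.24 (adjusted p = 7.91e-07) at the GMP origin, and its change at the ST-HSC origin, -0.39 ± 0.29, did not pass. Ndufaf4 was lower in all 4 comparisons, with changes from -1.31 at the CMP origin to -0.69 at the ST-HSC origin. Ndufaf3 went the other way: ST-HSC samples read 16.97, 11.6, 13.4, 16.99 and 13.1 FPKM and STHSC:MA9 samples 17.01, 37.1 and 29.2 FPKM. The lowest leukaemia sample was barely above the highest ST-HSC samples, and the change was 0.85 ± 0.24 (adjusted p = 0.003614), which became 0.61 (adjusted p = 0.0601) without STHSC:MA9 replicate 2. In MPP it ranged from 9.06 over 13.9 to 15.3 FPKM and in MPP:MA9 from 16.8 over 27.5 to 35.9 FPKM (0.93 ± 0.19, adjusted p = 6.616e-05). At the GMP origin its change was -0.37 ± 0.20 and did not pass, and the 4 changes differed (adjusted p = 0.001254).

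Complex II, which also belongs to the citrate cycle, had 3 of 4 subunits lower at the GMP origin, 2 at the MPP and CMP origins and none at the ST-HSC origin. Sdhd, its membrane anchor, read 186, 190.2, 184, 168 and 200.5 FPKM in GMP and from 43.9 over 110.8 to 143 FPKM in GMP:MA9. The groups did not overlap, and replicate 2 of GMP:MA9 was far below the others (-0.87 ± 0.18, adjusted p = 0.0001319). Normal ST-HSC and MPP were already at 83.1 ± 11.0 and 89.9 ± 14.7 FPKM, and their leukaemias at 102 ± 10.5 and 101 ± 5.99 FPKM did not differ from them by the test. The change of Sdhd differed among origins (adjusted p = 0.002106). The assembly factors Sdhaf1 and Sdhaf2 passed in none of the 4 comparisons.

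In complex III 7 of 8 subunits were lower at the GMP origin (median -0.89), 4 at the CMP and MPP origins and none at the ST-HSC origin. The one that did not pass against GMP was Uqcrfs1, the Rieske iron-sulfur protein. Uqcrb, a small subunit near the quinone site, was at 61.9 ± 7.86 FPKM in GMP and 37.3 ± 4.52 FPKM in GMP:MA9, and these samples did not overlap (-0.71 ± 0.14, adjusted p = 3.1e-05). It stood at 63.1 ± 15.4 FPKM in STHSC:MA9 and 52.8 ± 7.16 FPKM in ST-HSC, a difference that did not pass. Its windows are shared to 29.2%, mostly with Gm16089. Uqcr10, a further small subunit, fell by 0.94 on the log2 scale at the GMP origin (adjusted p = 6.26e-05).

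Of the 12 common subunits of complex IV, 11 were lower at the GMP origin (median -0.75), 7 at the CMP origin, 6 at the MPP origin and 2 at the ST-HSC origin. Ndufa4 (ENSMUSG00000029632, chr6:11850373-11857446 in NCBIM37), once assigned to complex I and now known as a subunit of complex IV, changed most. It read 134, 128, 199, 139.6 and 167 FPKM in ST-HSC against 76.7, 107 and 111 FPKM in STHSC:MA9, and 297, 274, 302, 248 and 243 FPKM in GMP against a range from 58.8 over 107 to 123 FPKM in GMP:MA9. In MPP it ranged from 282 over 340.5 to 390.2 FPKM and in MPP:MA9 from 93.0 over 119 to 149 FPKM. No leukaemia sample reached its normal counterpart in any of the 4 comparisons, with changes of -0.64 ± 0.18 (adjusted p = 0.003905), -1.53 ± 0.14 (adjusted p = 1.61e-11), -1.21 ± 0.17 (adjusted p = 1.22e-07) and -1.48 ± 0.15 (adjusted p = 3.46e-10) at the ST-HSC, MPP, CMP and GMP origins. The leukaemia means, 98.2 to 128 FPKM, were near that of LT-HSC, 106 ± 34.5 FPKM.

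Cox4i1, the common isoform of the largest nuclear subunit of complex IV, was at 685 ± 68.2 FPKM in GMP and 449 ± 160.4 FPKM in GMP:MA9 (-0.72 ± 0.20, adjusted p = 0.002317), and its changes at the other origins, -0.17 to 0.46, did not pass. Cox6a1 fell by 0.68 (adjusted p = 0.000117) at the CMP origin and by 0.78 (adjusted p = 4.67e-06) at the GMP origin. Cox6b2 changed in opposite directions. It read 54.0 over 58.2 to 61.6 FPKM in MPP and 96.5 over 103 to 110.3 FPKM in MPP:MA9, without overlap (0.83 ± 0.21, adjusted p = 0.001043). CMP and CMP:MA9, at 109 ± 42.4 and 59.1 ± 13.4 FPKM, overlapped and differed by -0.81 ± 0.25 (adjusted p = 0.005817). At the GMP origin it was higher by 0.72 ± 0.23 (adjusted p = 0.006452), which did not pass without GMP:MA9 replicates 2 and 3 (0.55, adjusted p = 0.0534). The changes differed among origins (adjusted p = 0.000632). Cox7a2l was higher in STHSC:MA9 by 0.55 (adjusted p = 0.0336), with 67.5% of its windows shared with other genes, Gm6969 most, and this call was lost without any 1 of the STHSC:MA9 libraries (adjusted p = 0.0673, 0.0784 and 0.0792), without ST-HSC replicate 5 (adjusted p = 0.0724) and without ST-HSC replicates 4 and 5 (0.46, adjusted p = 0.121).

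In ATP synthase all 5 tested F1 subunits and all 9 Fo and stalk subunits were lower at the GMP origin, with medians of -0.84 and -1.001. At the CMP origin 3 and 4 were lower, at the MPP origin 1 and 5, and at the ST-HSC origin 1 of each. Atp5g1 (ENSMUSG00000006057, chr11:95930166-95936984 in NCBIM37), one of the genes of the rotating c ring, read 204, 175, 155, 217 and 225 FPKM in ST-HSC and 101, 139 and 139 FPKM in STHSC:MA9. It read 397, 381, 351, 334 and 407 FPKM in GMP and from 133 over 152 to 159 FPKM in GMP:MA9. Leukaemia and normal samples did not overlap at any origin, and the changes were -0.63 ± 0.18 (adjusted p = 0.003586), -0.68 ± 0.14 (adjusted p = 6.521e-05), -1.27 ± 0.16 (adjusted p = 2.92e-08) and -1.33 ± 0.15 (adjusted p = 1.99e-09) at the ST-HSC, MPP, CMP and GMP origins. Atp5g1 shares 14.6% of its windows with other genes, Gm10039 most.

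Atp5b was at 4340 ± 477 FPKM in GMP and 1922 ± 480 FPKM in GMP:MA9 (-1.21 ± 0.16, adjusted p = 6.895e-08), and at 4237 ± 857 FPKM in CMP and 2358 ± 542 FPKM in CMP:MA9 (-0.85 ± 0.17, adjusted p = 8.667e-05). All samples of these leukaemias were below those of their origin, whereas at the ST-HSC and MPP origins the changes of -0.36 ± 0.19 and -0.21 ± 0.15 did not pass. Atp5h, a subunit of the peripheral stalk, had its largest spread in GMP:MA9, from 72.0 over 259 to 361 FPKM against 427 to 524 FPKM in GMP (-1.18 ± 0.22, adjusted p = 3.167e-05), and 23.2% of its windows are shared. Atp5s, known as a coupling factor and no subunit of the enzyme, was low throughout but fell at every origin, from 8.602 ± 1.65 FPKM in ST-HSC to 3.70 ± 1.59 FPKM in STHSC:MA9 and from 8.20 ± 0.869 FPKM in CMP to 2.21 ± 0.630 FPKM in CMP:MA9. These changes were -1.07 ± 0.21 (adjusted p = 5.49e-05) and -1.53 ± 0.19 (adjusted p = 1.96e-08).

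**Figure D4:**
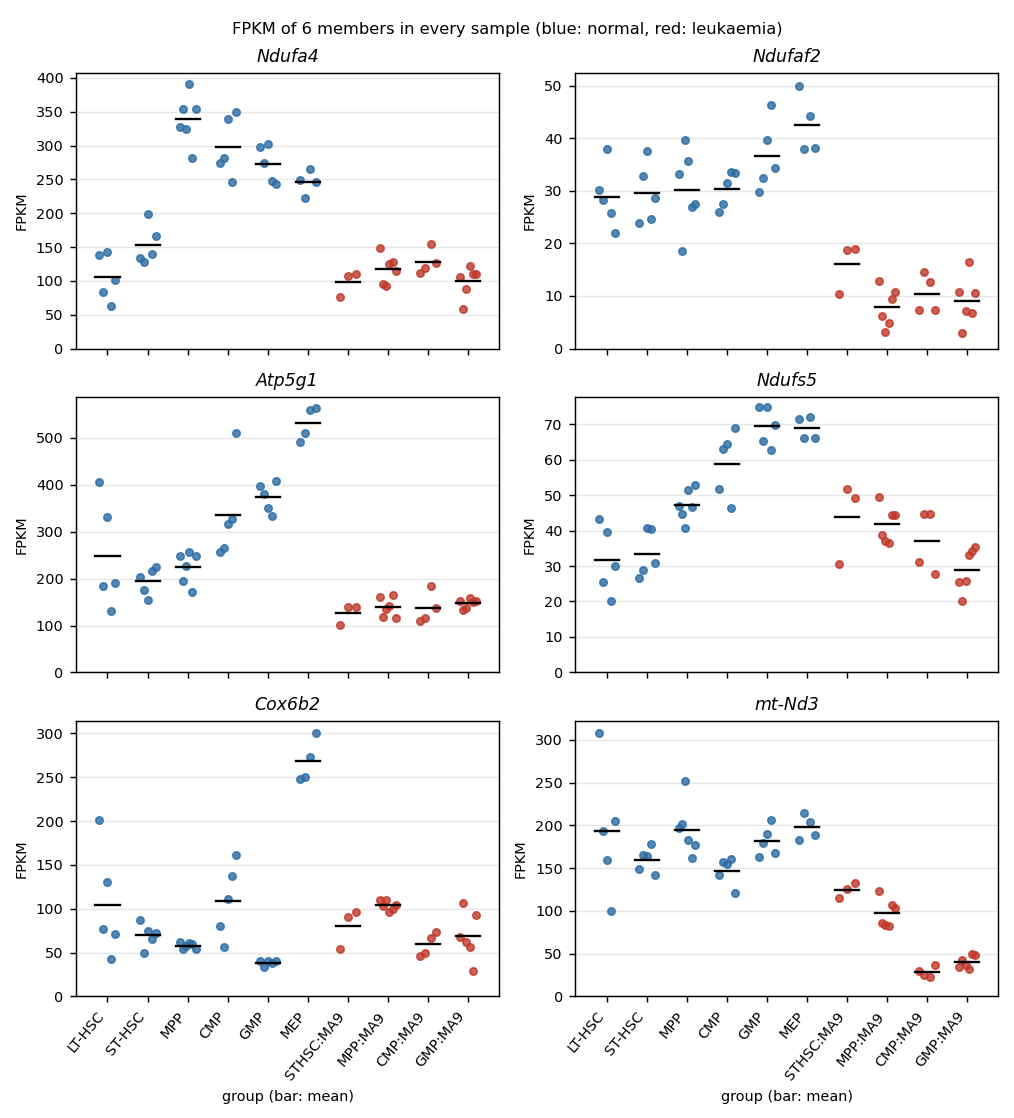
FPKM of 6 members in every sample of the 10 groups, with a bar at each group mean. Ndufa4, Ndufaf2 and Atp5g1 lie below their cell of origin in every leukaemia sample, Ndufs5 is lower only from the CMP and GMP origins by the test, Cox6b2 peaks in MEP at 268 FPKM, and mt-Nd3 is lowest in CMP:MA9 at 28.1 FPKM.

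The mitochondrial members changed in the opposite order of origins. In STHSC:MA9 11 of 13 were lower than in ST-HSC and none was higher, with a median of -0.92, where 24.6% of all genes were lower, and in MPP:MA9 10 were lower than in MPP, with a median of -0.69, where 34.8% were. Without ST-HSC replicates 4 and 5 the count in STHSC:MA9 was 9. In CMP:MA9 3 were lower than in CMP (median -0.23), against 36.0% of all genes, and in GMP:MA9 only mt-Nd3 was lower than in GMP (median 0.14), against 28.7%, so the shares at these origins were below the background. The change differed among origins for 11 of 13, against 38.0% of all genes, the exceptions being mt-Atp8 and mt-Co3. That count was 7 without GMP replicate 2 or STHSC:MA9 replicate 1, with median-ratio scaling or with no filter, and 6 without GMP:MA9 replicates 2 and 3. Over the whole mitochondrial genome, with ribosomal RNA included, mitochondrially encoded RNA was 29.5% of summed FPKM in ST-HSC and 18.04% in STHSC:MA9, 21.9% in MPP and 15.9% in MPP:MA9, 19.7% in CMP and 18.9% in CMP:MA9, and 20.6% in GMP and 25.5% in GMP:MA9. The count of 3 at the CMP origin was 1 without CMP replicate 4 or with median-ratio scaling, 5 with GC correction and 6 without CMP replicate 5. The single member at the GMP origin became 2 without GMP:MA9 replicate 4 and 2 higher beside 1 lower without GMP replicate 4, as also when FPKM were rescaled without mitochondrially encoded genes.

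Changes of the mitochondrial members in STHSC:MA9 ran from -2.13 in mt-Nd4l to -0.36 in mt-Nd3, and in MPP:MA9 from -1.78 in mt-Nd6 to -0.08 in mt-Nd1, another complex I subunit, which did not pass there (adjusted p = 0.716). mt-Nd4l, a small subunit of complex I, fell by 2.13 ± 0.43 (adjusted p = 8.25e-05) in STHSC:MA9, where it read 63.5, 67.8 and 45.0 FPKM against 182.5 to 394.9 FPKM in ST-HSC. mt-Cytb, cytochrome b of complex III, read 3015, 3159, 2564, 1964 and 2600 FPKM in ST-HSC and 789, 1065 and 1051 FPKM in STHSC:MA9, without overlap (-1.45 ± 0.27, adjusted p = 2.675e-05). mt-Nd2 fell by 1.67 ± 0.32 (adjusted p = 4.51e-05) at that origin and by 1.09 ± 0.25 (adjusted p = 0.000322) at the MPP origin. mt-Nd6, the only member on the other strand, ranged from 148 over 218.5 to 376 FPKM in MPP and from 46.8 over 67.7 to 88.9 FPKM in MPP:MA9 (-1.78 ± 0.28, adjusted p = 1.13e-06). It did not pass at the CMP and GMP origins, and its changes differed among origins (adjusted p = 0.000211). mt-Co1, the catalytic subunit of complex IV and the most abundant member, did not pass in STHSC:MA9 (-0.47, adjusted p = 0.126).

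mt-Nd3, a complex I subunit (chrM:9459-9806 in NCBIM37, plus strand, 348 bases), stood apart from the other mitochondrial members. It read 142, 157, 155, 161 and 121 FPKM in CMP and 29.6, 24.5, 22.3 and 36.1 FPKM in CMP:MA9, and 164, 179, 190.1, 206 and 167 FPKM in GMP against 32.4 over 39.4 to 49.6 FPKM in GMP:MA9. These groups did not overlap, with changes of -2.36 ± 0.14 (adjusted p = 3.15e-16) and -2.14 ± 0.13 (adjusted p = 5.16e-16), and the next member at the CMP origin that passed changed by -0.77. In MPP:MA9 it ranged from 82.5 over 94.5 to 123 FPKM, below all MPP samples (-0.996 ± 0.12, adjusted p = 6.92e-09). In STHSC:MA9 it read 114, 126 and 132 FPKM, below all ST-HSC samples, but its change of -0.36 ± 0.15 did not pass (adjusted p = 0.0513). The change differed among origins (adjusted p = 3.97e-10), and among normal groups mt-Nd3 did not differ by the test (adjusted p = 0.163).

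**Figure D5:**
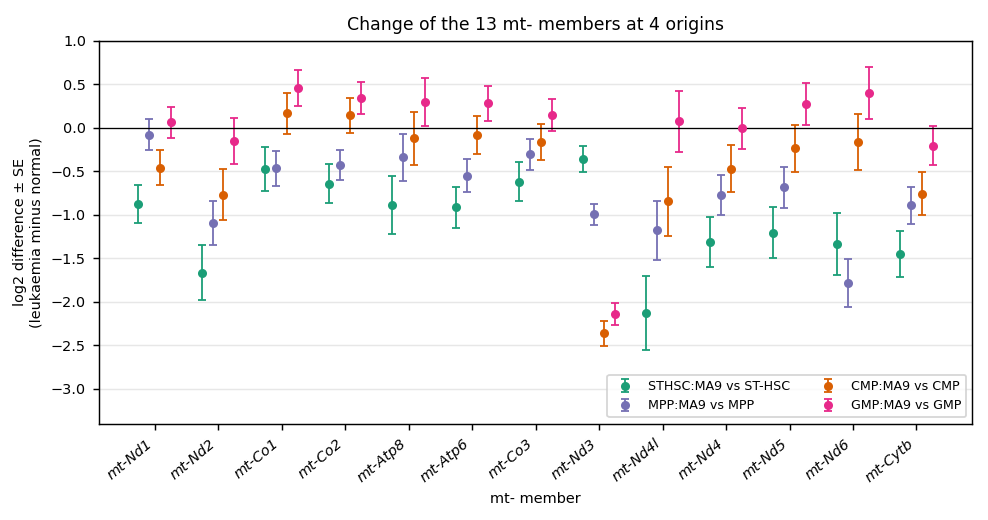
Difference of log2(FPKM + 1), leukaemia minus cell of origin, with standard errors, for the 13 mt- members in 4 comparisons. Changes lie highest at the GMP origin for most members, while mt-Nd3 is at -2.36 at the CMP origin and -2.14 at the GMP origin.

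Of 85 nuclear members 9 differed among the 4 leukaemias, against 13.3% of 12128 genes, and of 13 mitochondrial members mt-Nd3 alone did (adjusted p = 7.295e-07). Without GMP:MA9 replicate 2 the nuclear count was 14, without STHSC:MA9 replicate 2 or MPP:MA9 replicate 4 it was 5, and without STHSC:MA9 replicate 3 it was 4. It was 16 without GMP:MA9 replicates 2 and 3 and when FPKM were rescaled without mitochondrially encoded genes, and 3 with GC correction. Without CMP:MA9 replicate 3, GMP:MA9 replicate 2 or GMP:MA9 replicate 4, without GMP:MA9 replicates 2 and 3 together or with median-ratio scaling the mitochondrial count was 2, and it was 4 when FPKM were rescaled without mitochondrially encoded genes. Between STHSC:MA9 and MPP:MA9 2 nuclear members were higher (background 2.31%) and 3 lower (8.87%), and no mitochondrial member passed by limma, with 2 at an unadjusted p below 0.05. The nuclear count was 4 higher and 2 lower without STHSC:MA9 replicate 1, 2 in all without replicate 2 and 3 without replicate 3, and median-ratio scaling gave 5 higher and 3 lower. Rescaling without mitochondrially encoded genes gave 5 higher and 4 lower, a replicate block 1 and 2, and GC correction left only Ndufab1, lower in STHSC:MA9 (adjusted p = 0.025). Between MPP:MA9 and GMP:MA9, which shares the MPP:MA9 samples, 13 were higher in MPP:MA9 (11.3%) and 1 was lower (4.67%), with a median of 0.17 against 0.07. That comparison turned with its libraries and its scale: 8 were higher and 12 lower without GMP:MA9 replicates 2 and 3, and 4 higher and 14 lower when FPKM were rescaled without mitochondrially encoded genes. Of all genes, 1317 were higher and 689 lower of 12098 without those 2 libraries. After the rescaling 513 were higher and 1887 lower of 12128, so the member counts there were near the shares of all genes. The comparison gave 8 passing members without MPP:MA9 replicate 5 or GMP:MA9 replicate 3 and 9 without MPP:MA9 replicate 6 or with no filter, and GC correction left 3 higher and 1 lower.

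Atp5d, the delta subunit of the F1 head, passed in both comparisons. It read 104, 109 and 115 FPKM in STHSC:MA9, 135, 135, 138 and 135 FPKM in CMP:MA9, from 126 over 174 to 196 FPKM in MPP:MA9 and from 82.8 over 92.0 to 107 FPKM in GMP:MA9. MPP:MA9 overlapped neither STHSC:MA9 nor GMP:MA9, and the difference was -0.61 ± 0.13 for STHSC:MA9 minus MPP:MA9 (adjusted p = 0.00527) and 0.85 ± 0.10 for MPP:MA9 minus GMP:MA9 (adjusted p = 4.29e-05). With GC correction the latter was 0.38 (adjusted p = 0.0359). Ndufab1 had the same order in these groups, with 40.3 ± 8.79 FPKM in STHSC:MA9, 69.7 ± 5.59 FPKM in MPP:MA9 and 46.5 ± 7.45 FPKM in GMP:MA9 (adjusted p = 0.00465 and 0.00557). Uqcrc2 had the reverse order, with 103 ± 7.66, 66.9 ± 9.65 and 93.6 ± 12.0 FPKM (adjusted p = 0.00705 and 0.00618), and Uqcrb was higher in STHSC:MA9 than in MPP:MA9 by 0.71 ± 0.18 (adjusted p = 0.01875), which did not pass without STHSC:MA9 replicate 2 or replicate 3, with a replicate block (0.70, adjusted p = 0.056) or with GC correction (0.44, adjusted p = 0.161). mt-Nd3 was higher in MPP:MA9 than in GMP:MA9 by 1.24 ± 0.14 (adjusted p = 2.48e-05), whereas mt-Co1 (-0.72 ± 0.19, adjusted p = 0.01485) and mt-Cytb (-0.67 ± 0.19, adjusted p = 0.0218) were lower. With GC correction 1 mitochondrial member was higher and none lower, and without GMP:MA9 replicates 2 and 3 1 was higher and 1 lower.

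Markers of mature cells moved with these comparisons and their part in the results was not tested. Of 10 granulocyte markers, 6, 10, 8 and 2 were higher in leukaemia at the ST-HSC, MPP, CMP and GMP origins, and the median of their summed level was 7177 FPKM in MPP:MA9 and 86.0 FPKM in MPP, 9277 FPKM in GMP:MA9 and 4904 FPKM in GMP. Of 10 erythroid markers, 10, 3, 9 and 1 were lower, in the same order. Of 7 MEP markers, 7, 7, 7 and 4 were lower, and their summed level was 412 to 2913 FPKM in CMP and 1.47 to 3.09 FPKM in CMP:MA9. Of 7 GMP markers, 5 were lower in GMP:MA9, with a median of -3.30. Of all genes, 23.8%, 27.7%, 23.9% and 29.7% were higher and 24.6%, 34.8%, 36.0% and 28.7% lower at the ST-HSC, MPP, CMP and GMP origins. The granulocyte count at the GMP origin and the erythroid counts at the MPP and GMP origins were not above those shares.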

How the data were processed

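Sorted normal cells and MA9 leukaemias of the mouse were profiled by RNA sequencing after NuGEN Ovation amplification, which does not keep strand. The authors aligned reads and estimated expression with RSEM on mm9, per the submitters' processing notes, and deposited gene-level FPKM to 2 decimals for 38253 genes. Of 68 columns, 49 matched a sample's labels and 19 were not used. Symbols, coordinates and 31-base windows came from the NCBIM37 annotation. Members and gene lists were chosen with earlier results of these data known. Named were all mt- members, the nuclear members with the largest rise and fall among those that passed in each comparison (2 each for a leukaemia against its origin, otherwise 1), fixed isoform pairs, the most abundant member of each role and the smallest p of each test over groups. Ndufaf4, Ndufs7, Sdhaf1 and Uqcrfs1 were named after their values were seen, and 1 nuclear member is counted but not reported by name here.

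limma 3.58.1 in R 4.3.3 was run on log2(FPKM + 1) with a mean-variance trend in 3 fits, over the 40 samples of leukaemias and their origins (12600 genes with a mean FPKM of at least 1), the 19 leukaemias (12128) and the 30 normal samples (12367), and p-values were adjusted by Benjamini-Hochberg over all genes of a fit. The scripts were tested on simulated data. According to the study, no sample mixed several mice, and the work was done in repeat experiments to which the labels do not assign samples. Whether samples of different groups shared a mouse, or leukaemias a pool of transduced cells, is not stated. P-values therefore measure the spread between samples, which the fits took as independent of each other. Against the reference library, MPP replicate 2, the step between low values was held by at most 9.64% of low genes in any other library, so depth could not be recovered. Replicate numbers deviated together in every pair (correlation 0.142 to 0.683) only for LT-HSC and ST-HSC. Alternatives were a pseudocount of 0.1, no filter, median-ratio scaling, rescaling without mitochondrially encoded genes, a replicate block, GC and length correction and leaving out each library. Leaving out the 4 stem cell libraries or the 2 GMP:MA9 libraries was chosen after seeing the data.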

Additional observations from a re-analysis of the deposited data

Results flagged for a closer look

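Of 405 sets of values tested, each 1 measure in a group of 4 to 6 samples, 39 held a sample that stood apart by Dixon's criterion, and chance alone gives about 1 in 20. A single library held many of the mitochondrial ones. GMP replicate 4 was the highest of its group in the mean of the mitochondrial members (9.55 on the log2 scale, next 8.91) and in their share of summed FPKM (3.15%, next 2.03%). It stood apart in mt-Co1 (13551 FPKM, next 8252), mt-Co2 (2033, next 1407), mt-Atp8 (365, next 224), mt-Atp6 (1730.5, next 1182), mt-Nd4 (1532, next 907), mt-Nd5 (656, next 388), mt-Nd6 (112, next 54.5) and mt-Cytb (2627, next 1711), and was lowest in Atp5g3 (262, next 311) and Atp5h (427, next 499.9). CMP replicate 4 was highest of its group in mt-Nd2 (369 FPKM, next 163), mt-Atp8 (605, next 311), mt-Nd4 (2599, next 1228), mt-Nd5 (1439.6, next 705.5) and mt-Nd6 (289, next 105). GMP:MA9 replicate 2 was highest in mt-Nd2 (203 FPKM, next 101) and mt-Nd4l (152, next 73.5) and lowest in Ndufaf1 (1.97, next 6.54), Ndufb9 (28.4, next 76.2) and Sdhd (43.9, next 106).

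The remaining single samples were spread over groups. In CMP replicate 5, Cox8a (233 FPKM), Atp5g1 (510.3) and Cox4nb (37.4) were high. In CMP:MA9 replicate 3, Uqcrb (55.6), Ndufb3 (55.4) and Atp5d (138) were high, the last by a small amount in a tight group, and in CMP:MA9 replicate 1 Cox8a (112) was low. MPP:MA9 replicate 1 was high in Uqcrb (45.0) and Cox7a2 (115). Among stem cells, Ndufaf3 was high in LT-HSC replicate 1 (23.7), and Ndufab1 (48.6) was low in ST-HSC replicate 2 and mt-Nd1 (1067) in ST-HSC replicate 4. Ndufaf3 (9.06) was low in MPP replicate 5, Uqcrc2 (169) high in GMP replicate 2 and Cox6b1 (359) high in GMP replicate 5. In MEP, Ndufab1 (182) was high in replicate 1 and Cox7a2 (146) in replicate 3.

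The change from normal to leukaemia differed among the 4 origins, by limma's test of the difference itself, for 38 of 85 nuclear members and 11 of 13 mitochondrial members. The adjusted p was 6.1e-06 for Ndufs5, 0.000569 for Ndufb3, 3.97e-10 for mt-Nd3 and 0.000211 for mt-Nd6.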

How the results depend on the processing

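Counts are of passing members, with higher and lower in that order where both are given, and the cause of each difference was not tested. Shares of all genes that passed moved with the setting as well. Nuclear members in STHSC:MA9 against ST-HSC numbered 22 (1 and 21) when rescaled without mitochondrially encoded genes. With GC correction 14 nuclear members passed between MPP and CMP, 12 (1 and 11) between ST-HSC and MPP, 65 (2 and 63) between CMP and MEP, 4 between MPP:MA9 and GMP:MA9, 1 between STHSC:MA9 and MPP:MA9, 1 (1 and 0) between LT-HSC and ST-HSC and 3 among leukaemias, and mitochondrial counts were 5 at the CMP origin, 2 (1 and 1) at the GMP origin, 1 (1 and 0) between MPP:MA9 and GMP:MA9, 1 between ST-HSC and MPP, 2 between CMP and MEP and 11 among normal groups. With median-ratio scaling nuclear counts were 8 (5 and 3) between STHSC:MA9 and MPP:MA9, 1 (1 and 0) between LT-HSC and ST-HSC, 12 (1 and 11) between ST-HSC and MPP, 42 (2 and 40) between CMP and GMP and 67 (1 and 66) between CMP and MEP, and mitochondrial counts were 1 at the CMP origin, 2 (1 and 1) between CMP and GMP, 3 between CMP and MEP, 7 for the difference among origins, 2 among leukaemias and 11 among normal groups. Rescaled without mitochondrially encoded genes, nuclear counts were 9 (5 and 4) between STHSC:MA9 and MPP:MA9, 18 (4 and 14) between MPP:MA9 and GMP:MA9, 7 between ST-HSC and MPP, 24 (2 and 22) between CMP and MEP, 25 for the difference among origins and 16 among leukaemias, and mitochondrial counts were 3 (2 and 1) at the GMP origin, 0 between MPP and CMP, 1 between CMP and GMP and 4 among leukaemias. With no filter they were 9 nuclear between MPP:MA9 and GMP:MA9, and 0 mitochondrial between MPP and CMP, 2 between CMP and GMP and 7 for the difference among origins. Without the 2 GMP:MA9 libraries they were 20 nuclear (8 and 12) between MPP:MA9 and GMP:MA9 and 16 among leukaemias, and 6 mitochondrial for the difference among origins and 2 among leukaemias. Without the 4 stem cell libraries 2 (2 and 0) passed between LT-HSC and ST-HSC.

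The replicate block, for numbers paired by deviation only between LT-HSC and ST-HSC, left that count at 1. Elsewhere samples shared only a number, and the block gave 3 nuclear (1 and 2) between STHSC:MA9 and MPP:MA9 and 0 mitochondrial between MPP and CMP, and no other count moved by over 1.5 times. Leaving out single libraries gave nuclear counts of 7 to 12, 33 to 40, 34 to 46 and 67 to 76 at the ST-HSC, MPP, CMP and GMP origins, 2 to 6 and 8 to 17 for the leukaemia pairs, 0 to 3, 11 to 32, 4 to 11, 16 to 26 and 30 to 56 for the normal steps, and 28 to 49, 4 to 14 and 81 to 83 for differences among origins, leukaemias and normal groups. Mitochondrial counts were 8 to 11, 8 to 11, 1 to 6 and 1 to 3 at the origins, 0 to 2, 1 to 5 and 1 to 2 from MPP to CMP, CMP to GMP and CMP to MEP, and 7 to 11, 1 to 2 and 7 to 11 among origins, leukaemias and normal groups. The direction of the nuclear count at the ST-HSC origin turned without STHSC:MA9 replicate 1 (8, as 6 and 2), that of STHSC:MA9 against MPP:MA9 without the same library (6, as 4 and 2) and that of the mitochondrial count at the GMP origin without GMP replicate 4 (3, as 2 and 1). FPKM without read totals gave no measure of depth.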

Other observations

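Genes outside the name rule that serve the respiratory chain or belong to it were counted as well, as lists chosen with earlier results known. Of 76 proteins of the mitochondrial ribosome, which translates the mitochondrial members, 12, 36, 51 and 64 were lower in leukaemia at the ST-HSC, MPP, CMP and GMP origins, with medians of -0.14, -0.38, -0.59 and -0.79 (backgrounds 24.6%, 34.8%, 36.0% and 28.7%). Of 13 citrate cycle enzymes 4, 8, 11 and 10 were lower and 2, 2, 0 and 0 higher, with medians of -0.07, -0.35, -0.60 and -0.81. Of 8 electron carriers and other subunits outside the name rule 2, 5, 6 and 7 were lower and 1, 0, 0 and 0 higher, with medians of -0.21, -0.48, -0.58 and -1.003. Assembly factors outside the rule, with 22 of 24 tested, had 5, 11, 14 and 13 lower and 0, 1, 0 and 0 higher. Nuclear regulators of respiratory genes, with 10 of 11 tested, had 4, 4, 6 and 3 lower and 2, 3, 1 and 2 higher. Of 14 tested factors of mitochondrial transcription and RNA 4, 8, 8 and 8 were lower and 2, 3, 1 and 2 higher. For all these lists the backgrounds of lower genes are those given above, and 23.8%, 27.7%, 23.9% and 29.7% of all genes were higher at these origins. Counts of the nuclear regulators were near the backgrounds at the MPP and GMP origins, and no list was tested against them.

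The balance of isoforms also varied. Cox6b2 made up 21.3 ± 2.74% (SD) of the pair Cox6b1 and Cox6b2 in MPP and 38.2 ± 2.82% in MPP:MA9, 10.5 ± 0.712% in GMP and 26.7 ± 11.9% in GMP:MA9. Atp5g1 made up 52.8% to 61.2% of Atp5g1 and Atp5g3 over the means of normal groups and 48.3% to 50.1% over those of the leukaemias. These shares were not tested.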
